A study of Rattus norvegicus with 35 samples.

Results

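Livers of bile duct-ligated rats that received simvastatin and then underwent hemorrhage and resuscitation (H/R) were compared with livers of untreated ligated rats that had a sham procedure. The comparison uses 13 of the 35 arrays of the series, 8 from simvastatin H/R rats and 5 from ligated sham rats, chosen by their treatment group labels. It covers 13437 genes, each read from its brightest probe set with 1 gene symbol. Drug and H/R differ together between these groups, so the comparison asks which genes their joint effect leaves away from the uninjured cirrhotic level, and which genes moved by H/R alone stand at that level again.

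All rats of both groups had the common bile duct tied and resected 4 weeks before the study, which produces secondary biliary cirrhosis, and all ligated rats received vitamin K. Treated rats swallowed simvastatin in water through a gavage tube, 5 mg per kg of body weight each day, beginning 3 days ahead of the procedure and ending 1 h ahead of it. The labels do not say whether the untreated rats received water by gavage. The labels also do not state the strain, sex and age, how much blood was withdrawn, and how long after resuscitation the liver was taken. The other arrays came from ligated rats given simvastatin and the sham procedure (simvastatin sham, n = 5), untreated ligated rats after H/R (ligated H/R, n = 6), unligated control rats after H/R (control H/R, n = 6) and unligated control rats after the sham procedure (control sham, n = 5). They entered the same linear model (limma), share its estimate of the spread, and give the component effects named below.

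Statins block the synthesis of mevalonate, from which cells build isoprenoids and cholesterol. When sterol in the membrane of the endoplasmic reticulum falls, the transcription factor SREBP2 is released and raises the genes of this pathway and of sterol uptake. In H/R the liver loses and then regains perfusion, and heat shock chaperones and inflammatory cytokines are among the genes known to respond. The ligated liver also holds proliferating bile duct cells, stellate cells and hepatocytes, whose division needs cyclins, mitotic kinesins and kinetochore proteins.

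The labelled tissue was checked against its markers. In both groups all 6 hepatocyte markers and 5 of 6 bile duct markers lay above the nonspecific control probes. Of 19 listed bile duct genes 17 were called higher in ligated sham than in control sham livers, as were 25.3% of all genes. Of the markers of stellate cells, endothelium, macrophages, neutrophils, lymphocytes, red cells and other tissues, 0 passed the test between simvastatin H/R and ligated sham livers, and 0 of 2 red cell markers were above background in either group. The mean of 4 neutrophil markers ranged from 4.69 to 6.37 in simvastatin H/R livers and from 4.97 to 5.36 in ligated sham livers. A pair of quality measures leaned with the groups, and their part in the results was not tested. The 3' minus 5' signal of beta-actin averaged 1.66 ± 0.18 in simvastatin H/R and 1.92 ± 0.16 in ligated sham arrays (log2, SD, n = 8 and n = 5, exact permutation p = 0.0218, adjusted p = 0.0839 over 6 measures), and the difference of a pair of hybridization spikes averaged 3.70 ± 0.18 and 3.94 ± 0.12 (exact permutation p = 0.0280, adjusted p = 0.0839). Sample titles hold a number whose last digits recur across arrays, and their meaning is not stated. The 8 simvastatin H/R arrays carry 2 endings, neither of which occurs among the 5 ligated sham arrays, so ending and group cannot be told apart between these groups alone. The 5 simvastatin sham arrays carry the same 2 endings, so the same holds between simvastatin sham and ligated sham arrays.

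In the joint comparison 170 of 13437 genes (1.27%) passed an adjusted p of 0.05 (limma, Benjamini-Hochberg), 114 of them higher (0.848%) and 56 lower (0.417%) in simvastatin H/R livers. At least 2-fold, 29 genes were higher and 22 lower. The higher genes were led by enzymes of cholesterol synthesis, and the lower ones by Car3, Cyp2c11 and genes of cell division. The median over all genes was -0.02 on the log2 scale. The call set depended on single arrays: 88 genes passed without ligated sham replicate 1 and 100 without ligated sham replicate 2. With the title ending as a fixed block, estimable here only through ligated H/R arrays that share endings with each group, 11 genes passed. Where nothing says otherwise, an adjusted p below comes from the all-array limma fit, and it measures the spread between these samples only.

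**Figure D1:**
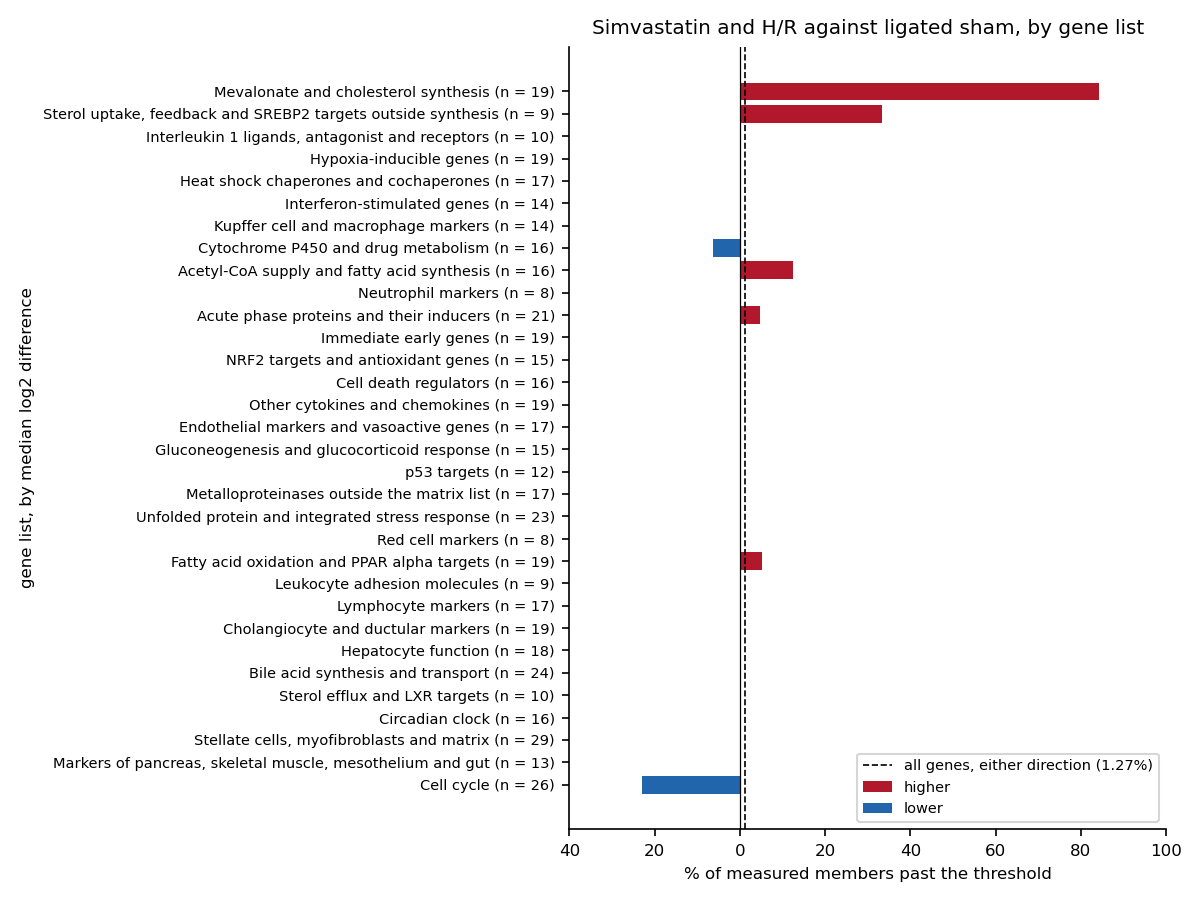
Share of measured members of 32 gene lists past the threshold in simvastatin H/R against ligated sham livers (adjusted p under 0.05), with genes higher in simvastatin H/R to the right and lower to the left, lists ordered by median log2 difference; the dashed line marks 1.27%, the share of all genes called in either direction. Mevalonate and cholesterol synthesis stand at the top with 16 of 19 members and the cell cycle at the bottom with 6 of 26.

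Cholesterol synthesis was the group with the most calls. Of 19 measured enzymes from acetoacetyl-CoA to cholesterol, 16 rose and 0 fell in simvastatin H/R livers, with a list median of 1.30 on the log2 scale against -0.02 for all genes. Of all genes 0.848% were called higher. The mean log2 signal of the 19 ranged from 8.52 to 9.06 in simvastatin H/R livers and from 7.32 to 7.53 in ligated sham livers, without overlap. The list was written with earlier results of these data known, so its count is a description.

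The early steps were among the largest changes. Acat2 encodes the thiolase that joins acetyl-CoA units, and its log2 signal averaged 8.63 ± 0.25 (SD, n = 8), with a lowest value of 8.30 and a median of 8.66, in simvastatin H/R livers, against 6.35, 6.20, 6.07, 6.15 and 6.48 in ligated sham livers. Its log2 difference was 2.38 ± 0.18 (SE, adjusted p = 2.5e-11), or 5.21-fold. Idi1, the isomerase that makes the second isoprenoid building block, ran from 10.77 to 11.31 with a median of 11.24 in simvastatin H/R livers, against 8.74, 8.54, 8.89, 8.98 and 8.62 in ligated sham livers. All 8 treated values lay above all 5 sham values, and the difference of 2.43 ± 0.15 (5.38-fold, adjusted p = 2.2e-13) had the smallest p of all genes. Mvd, which decarboxylates mevalonate diphosphate, averaged 6.98 ± 0.40 in simvastatin H/R and 4.72 ± 0.24 in ligated sham livers (SD, n = 8 and n = 5), a difference of 2.26 (adjusted p = 4.7e-08). The kinases Mvk and Pmvk, which phosphorylate mevalonate, rose less, by 1.07 and 1.30 on the log2 scale. Fdps, the source of farnesyl diphosphate, rose by 1.30 (adjusted p = 1.8e-07). Ggps1, on the side branch to protein prenylation, had a difference of 0.35 and did not pass (adjusted p = 0.28).

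The steps that commit carbon to sterol moved in the same direction. Fdft1 (squalene synthase) and Sqle (squalene epoxidase) rose by 1.25 and 1.28, and Lss, which closes the rings of lanosterol, by 1.62. Cyp51, the lanosterol demethylase, ran from 10.81 to 11.35 in simvastatin H/R livers, against 9.44, 9.24, 9.71, 9.51 and 9.55 in ligated sham livers, a rise of 1.60 ± 0.14 (adjusted p = 1.9e-09). Msmo1, which oxidizes the methyl groups removed next, ran from 10.54 to 11.12 with a median of 10.73 in simvastatin H/R livers. Its ligated sham values were 8.95, 8.92, 8.93, 8.78 and 8.61, and the rise was 1.93 ± 0.18 (3.81-fold, adjusted p = 9.8e-09). Neither gene's groups overlapped. Hsd17b7, a ketosteroid reductase of the same demethylation complex, spread more widely, from 7.06 to 8.11 in simvastatin H/R livers, against 5.77, 4.85, 4.85, 5.66 and 5.64 in ligated sham livers, and rose by 2.33 ± 0.28 (adjusted p = 1.1e-06). Tm7sf2, a sterol reductase, rose by 1.68, while Lbr, a nuclear membrane protein with the same reductase activity, differed by 0.36 (adjusted p = 0.56). Nsdhl, with 0.76, just missed the threshold (adjusted p = 0.051). The last enzymes Ebp, Sc5d and Dhcr7 rose by 1.06, 1.39 and 1.16.

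Set beside the component effects, these rises lay near those of simvastatin sham livers. The list median was 1.33 for simvastatin sham against ligated sham livers, 0.02 for simvastatin H/R against simvastatin sham livers, and -0.14 for ligated H/R against ligated sham livers, where 0 of 19 members passed upward. The comparisons share arrays, so these values are given side by side and not tested against each other. Neither simvastatin group shares a title ending with the ligated sham arrays, so drug and ending cannot be told apart in these values. Idi1 was 2.55 higher in simvastatin sham than in ligated sham livers, and its difference between ligated H/R and ligated sham livers was -0.08 (adjusted p = 0.92). Hsd17b7 had 2.46 and -0.75 for the same effects, the second short of the threshold (adjusted p = 0.36). Ligation itself goes the other way, since 15 of the 19 enzymes were called lower in ligated sham than in control sham livers, a comparison in which 47.6% of all genes passed. Idi1 averaged 11.18 in simvastatin H/R, 8.75 in ligated sham and 9.58 in control sham livers, and Fdft1 averaged 9.23, 7.98 and 9.42 in the same groups. With the title ending as a fixed block, 6 of the 19 passed upward.

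**Figure D2:**
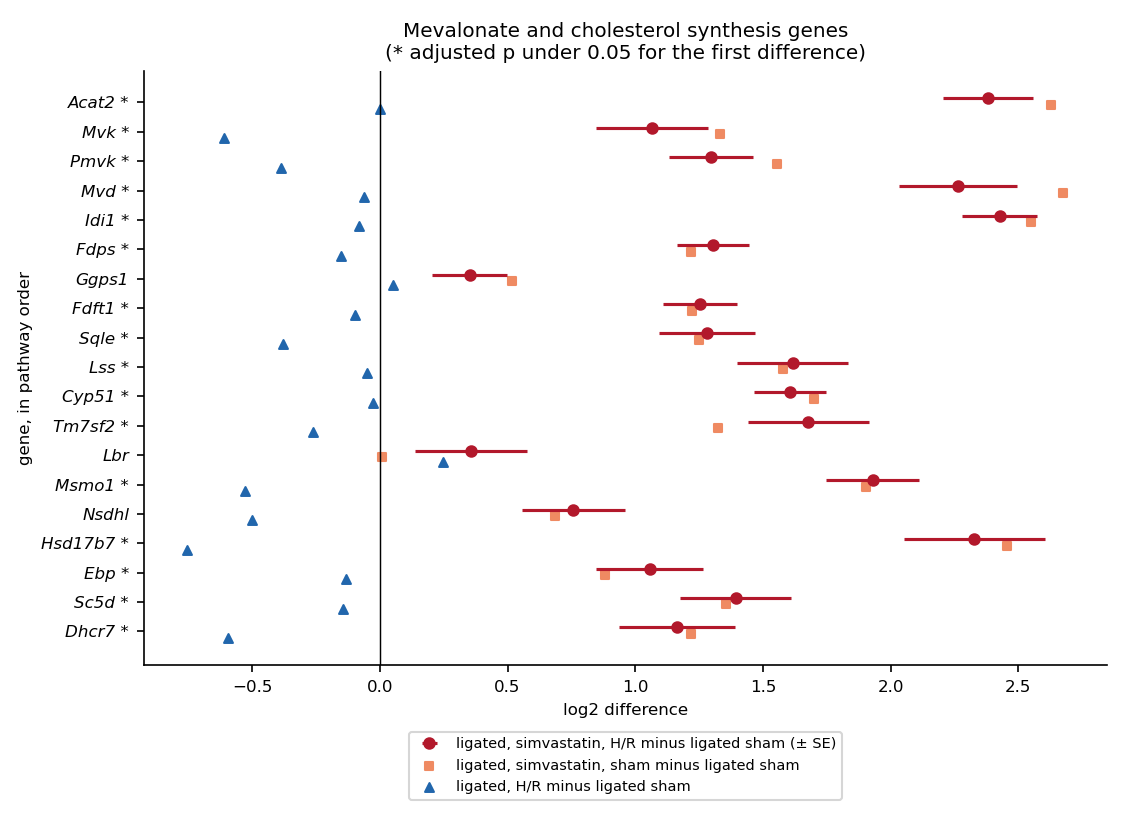
Log2 differences from ligated sham livers of 19 genes of mevalonate and cholesterol synthesis in pathway order, for simvastatin H/R (circles, with SE), simvastatin sham (squares) and ligated H/R livers (triangles). The circles and squares lie together to the right of 0 for most genes, from 1.06 (Ebp) to 2.43 (Idi1) among the 16 starred, while the triangles lie near or left of 0, down to -0.75 for Hsd17b7.

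Outside synthesis, 3 of 9 measured genes of sterol feedback and uptake rose, where 0.848% of all genes were called higher. Aacs, which activates acetoacetate for lipid synthesis, ran from 5.95 to 6.70 in simvastatin H/R livers, against 4.70, 4.86, 4.58, 4.64 and 4.24 in ligated sham livers, a rise of 1.77 ± 0.17 (adjusted p = 9.8e-09). Stard4, a cytosolic sterol carrier, rose by 0.90 (adjusted p = 0.0025), and Insig1, which retains the SREBP escort in the endoplasmic reticulum, by 0.82 (adjusted p = 0.0034). Srebf2, the gene of SREBP2 itself, had a difference of -0.03 (adjusted p = 0.97), and Scap 0.02 (adjusted p = 0.98). Of 16 genes of fatty acid synthesis 2 passed upward, against 0.848% of all genes. Acss2, which makes acetyl-CoA from acetate, rose by 1.55 ± 0.22 (adjusted p = 2.8e-05), and Elovl6, an elongase of saturated fatty acids, by 1.62 ± 0.30 (adjusted p = 0.0017). Fasn, the fatty acid synthase, differed by 0.50 (adjusted p = 0.47) and Acaca, which supplies its malonyl-CoA, by -0.26 (adjusted p = 0.75). Of 10 sterol efflux genes 0 passed.

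The promoters of a pair of risen sterol genes and a pair of fallen cell division genes are shown because these gene groups hold many of the largest changes, and because NF-Y boxes are known from work in mammalian cells to accompany both SREBP sites and cell cycle elements. Each window printed holds NF-Y boxes, and Cdc20 fell by only 0.78 on the log2 scale. Among other genes with large changes, the windows of Acat2 and Cyp51 hold no CCAAT, the letters searched for the NF-Y box. Those of Ccnb1 and Kif20a hold no TTTGAA, the letters searched for the cell cycle element. Other spellings of these elements were not searched. The windows, from RefSeq on the GRCr8 assembly, run from 250 bases before to 50 bases after the annotated start, in the direction of the gene. Idi1 lies at chr17:66547475-66547774 (minus strand), Msmo1 at chr16:29746863-29747162 (plus strand), Ccnb2 at chr8:79981609-79981908 (minus strand) and Cdc20 at chr5:137255750-137256049 (minus strand). Capitals mark the NF-Y box CCAAT, read on either strand, and the cell cycle homology element, searched as TTTGAA, read on either strand.
Idi1: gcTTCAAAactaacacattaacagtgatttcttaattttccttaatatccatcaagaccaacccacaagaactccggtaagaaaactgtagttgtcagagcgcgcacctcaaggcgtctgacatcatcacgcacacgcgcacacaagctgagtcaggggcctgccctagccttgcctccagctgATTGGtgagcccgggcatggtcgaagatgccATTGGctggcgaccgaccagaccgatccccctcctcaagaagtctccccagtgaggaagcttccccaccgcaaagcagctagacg
Msmo1: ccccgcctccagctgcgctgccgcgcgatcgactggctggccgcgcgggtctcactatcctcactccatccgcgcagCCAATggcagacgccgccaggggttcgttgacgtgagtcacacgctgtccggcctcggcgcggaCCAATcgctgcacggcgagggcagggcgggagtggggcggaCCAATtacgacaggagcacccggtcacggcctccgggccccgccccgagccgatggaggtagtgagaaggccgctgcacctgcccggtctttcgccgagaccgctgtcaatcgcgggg
Ccnb2: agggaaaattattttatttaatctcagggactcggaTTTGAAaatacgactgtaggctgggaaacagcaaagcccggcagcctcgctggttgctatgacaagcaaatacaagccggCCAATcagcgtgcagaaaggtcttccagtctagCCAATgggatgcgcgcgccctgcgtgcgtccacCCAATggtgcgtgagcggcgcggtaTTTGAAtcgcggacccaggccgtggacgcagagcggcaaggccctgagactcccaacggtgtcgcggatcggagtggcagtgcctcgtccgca
Cdc20: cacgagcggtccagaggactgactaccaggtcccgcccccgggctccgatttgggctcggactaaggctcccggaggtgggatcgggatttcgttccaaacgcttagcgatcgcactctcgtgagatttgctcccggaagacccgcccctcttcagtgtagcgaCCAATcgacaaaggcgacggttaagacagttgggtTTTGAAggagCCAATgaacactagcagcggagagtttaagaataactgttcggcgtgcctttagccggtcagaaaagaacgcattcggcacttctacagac

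The Idi1 window holds NF-Y boxes at -66 and -35 from the start site and the cell cycle element at -248, all on the other strand, and the Msmo1 window holds them at -173, -109 and -68. In Ccnb2 boxes start at -134, -101 and -68, with the cell cycle element at -214 and -43. Cdc20 holds boxes at -86 and -41 and the element at -51. On both strands, CCAAT was found in 10 of 13 risen sterol synthesis genes with a promoter in the table (76.9%), in 15 of 17 genes lower by at least 2-fold (88.2%) and in 37.4% of the promoters of tested genes. TTTGAA was found in 11 of those 17 (64.7%), in 2 of the 13 sterol genes (15.4%) and in 12.3% of the promoters of tested genes. The sterol element searched as TCACNCCAC was found in 0 of 13 and 0 of 17, and in 1.12% of tested genes. These are counts of letters and show no binding.

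Genes of cell division were lower in simvastatin H/R livers. Of 26 measured cell cycle genes, 6 fell, 0 rose and 25 had a difference below 0, with a median of -0.67. Over all genes 0.417% were called lower, 7297 of 13437 had a difference below 0 and the median was -0.02. In bulk liver, fewer dividing cells and less RNA per dividing cell cannot be told apart. Of the 22 genes lower by at least 2-fold, 20 were genes other than Car3 and Cyp2c11, and they were chosen by the size of the fall. Beside those described next they include Nusap1, Cenpf and Kif22, of the spindle and the kinetochore, Ncaph, of the condensin complex, and Ube2c, which works with the anaphase ligase, at -1.23, -1.18, -1.18, -1.08 and -1.19.

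The cyclins that drive entry into mitosis showed the pattern. Ccnb2 (cyclin B2) had log2 signals of 4.74, 5.96, 4.32, 3.24, 5.00, 4.40, 5.99 and 5.99 in simvastatin H/R livers, against 6.72, 6.85, 7.15, 6.52 and 6.52 in ligated sham livers. The groups did not overlap, but 3 treated livers lay within 1 log2 unit of the sham livers and 1 lay more than 3 units below their mean. The difference was -1.80 ± 0.42 (3.48-fold lower, adjusted p = 0.020), and it lost the call without any one of ligated sham replicates 1, 2 and 3. Ccnb1 (cyclin B1) fell by 1.35 and Ccna2 (cyclin A2) by 1.34 (adjusted p = 0.0085 and 0.013), and Ccna2 lost its call without ligated sham replicate 2.

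Motor and spindle genes were also lower. Kif20a, a kinesin of the central spindle, ran from 3.50 to 5.28 with a median of 4.40 in simvastatin H/R livers, against 5.88, 6.12, 6.10, 5.78 and 6.01 in ligated sham livers, a fall of 1.60 ± 0.34 on the log2 scale (adjusted p = 0.0077). Prc1, which bundles the same microtubules, fell by 1.38 (adjusted p = 0.014), a call that was lost without ligated sham replicate 2. Knstrn and Spc24, of the spindle and the kinetochore, fell by 1.39 and 1.37. Top2a, the topoisomerase that untangles chromosomes, averaged 4.64 ± 0.72 in simvastatin H/R and 6.11 ± 0.18 in ligated sham livers, and fell by 1.47 (adjusted p = 0.014). Pttg1 (securin) fell by 1.33, and Pimreg, a regulator of the metaphase to anaphase step, by 1.47. For Pimreg this is at least 1.85-fold, since its simvastatin H/R mean was not above background. Birc5 (survivin), of the chromosomal passenger complex, had the smallest p among the listed cell cycle genes: it ran from 3.09 to 3.94 in simvastatin H/R livers, against 4.79, 4.76, 4.45, 4.63 and 4.19 in ligated sham livers, a fall of 1.17 ± 0.20 (adjusted p = 5.8e-04). Its simvastatin H/R mean of 3.40 lay just above the brightest nonspecific probes, which averaged 3.32 in that group, so the size of this fall is uncertain. Cdc20, the activator of the anaphase ligase, ran from 3.63 to 4.38, against 4.85, 4.89, 4.96, 4.70 and 4.55 in ligated sham livers, and fell by 0.78 (adjusted p = 0.0058).

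Other listed genes did not pass. Of the replication licensing helicase, Mcm4 differed by -0.03 and Mcm7 by -0.04, and Pcna, the sliding clamp, by 0.14, none past the threshold (adjusted p = 0.97, 0.96 and 0.63). Mki67, Rrm2 and Cdk1 differed by -1.28, -1.35 and -1.24, just short of it (adjusted p = 0.068, 0.064 and 0.086). All 3 had groups that did not overlap, as did 218 of all 13437 genes (1.62%).

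The 20 genes lower by at least 2-fold had a median of -1.28 for the joint difference. It was -0.42 for simvastatin sham against ligated sham, -0.87 for simvastatin H/R against simvastatin sham and -0.31 for ligated H/R against ligated sham livers, and 0 of the 20 passed in any of these 3 component comparisons. Over all genes 0.781% passed for simvastatin sham against ligated sham livers and 0 genes for simvastatin H/R against simvastatin sham livers, where 725 had an unadjusted p under 0.05. Between simvastatin H/R and ligated H/R livers 6 of the 20 were lower past the threshold, as were 0.506% of all genes. For 16 of the 20 the simvastatin H/R and ligated sham groups did not overlap, as for 1.62% of all genes and 100 of the 170 called genes. The 20 were chosen by their fall between these groups, which favours such separation. The mean of the 20 was 4.03, 4.63, 3.78, 3.58, 4.27, 3.72, 4.78 and 4.90 in the 8 simvastatin H/R livers, and 5.56, 5.60, 5.54, 5.39 and 5.42 in the 5 ligated sham livers. Simvastatin sham livers lay between, from 4.96 to 5.22. Ligated H/R livers ran from 5.12 to 5.80 except replicate 3, which lay at 3.87, among the low simvastatin H/R livers. Without that array 10 of the 26 listed cell cycle genes passed instead of 6, and 75 of all genes were called lower instead of 56. The array is in neither group of the joint comparison, so leaving it out changes the estimate of the spread and not the differences. In the ligated sham livers 16 of the 20 were called higher than in control sham livers, as were 25.3% of all genes. The lowest difference among the 20 was 0.47. With the title ending as a fixed block 0 of the 26 listed genes passed. That fit is linked to simvastatin H/R arrays through ligated H/R replicates 1 and 3, and replicate 3 is the low array named above. Without the pair of simvastatin H/R arrays that share an ending with ligated H/R arrays, 3 of the 26 passed.

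**Figure D3:**
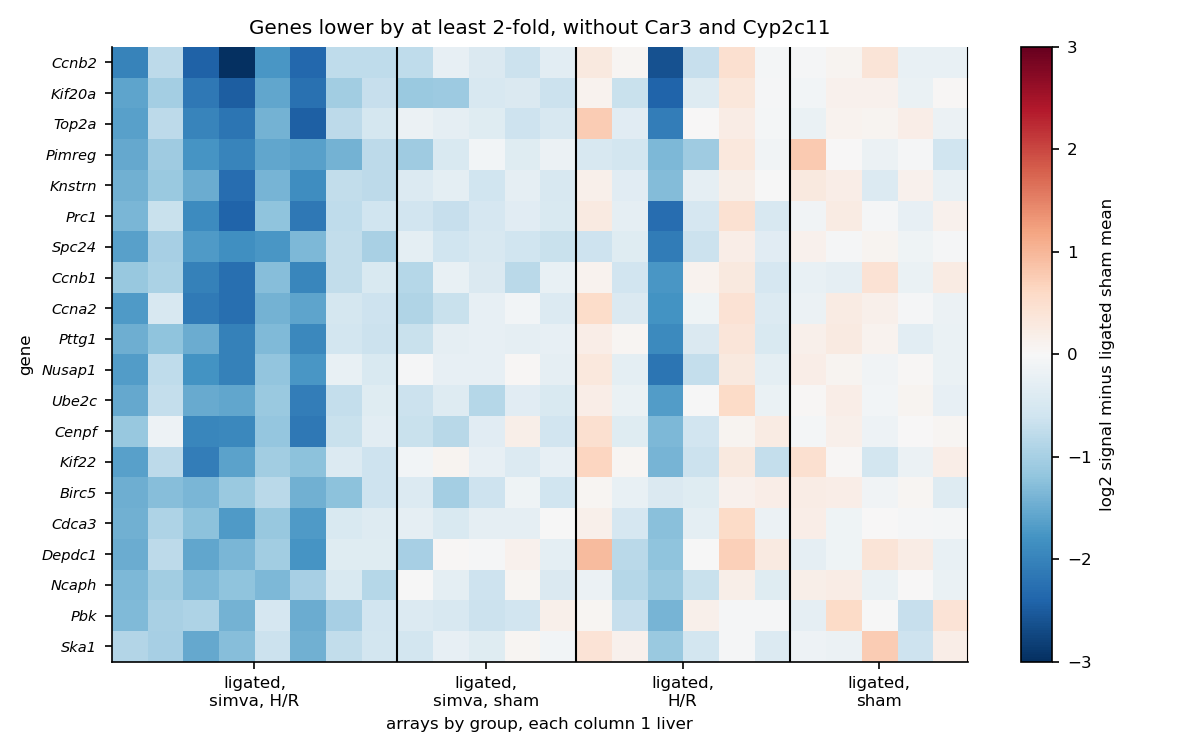
Log2 signal minus the ligated sham mean for the 20 genes lower by at least 2-fold in simvastatin H/R livers other than Car3 and Cyp2c11, one column per liver, in simvastatin H/R (n = 8), simvastatin sham (n = 5), ligated H/R (n = 6) and ligated sham (n = 5) livers. Blue is lower: the simvastatin H/R livers differ among themselves, and 1 of 6 ligated H/R livers lies among the lower of them.

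Car3 and Cyp2c11 had the largest falls, and both showed wide spread in ligated sham livers. Car3, a cytosolic carbonic anhydrase abundant in hepatocytes of male rats, ran from 2.31 to 4.50 with a median of 2.75 in simvastatin H/R livers, where its mean was not above background, against 4.28, 7.28, 5.80, 3.73 and 9.18 in ligated sham livers. It was at least 5.86-fold lower (log2 difference -3.09 ± 0.53, adjusted p = 6.6e-04), with overlapping groups. Cyp2c11, the growth hormone-dependent P450 of male rat liver, ran from 2.98 to 5.12 with a median of 3.58 in simvastatin H/R livers, against 5.03, 4.87, 7.60, 4.13 and 9.34 in ligated sham livers, a difference of -2.48 ± 0.50 (adjusted p = 0.0058). Probes for Cyp2c11 may also read related Cyp2c genes. Both calls were lost when the fit held only these groups, at an unchanged difference. Both were also lost with the title ending as a fixed block. The log2 differences were larger there, -4.51 for Car3 and -3.59 for Cyp2c11 (adjusted p = 0.094 and 0.27). Without ligated sham replicate 5, the highest sham liver for both genes, the log2 differences were -2.31 for Car3 and -1.69 for Cyp2c11, still past the threshold (adjusted p = 0.0036 and 0.029).

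The component values had opposite signs for this pair. In simvastatin sham livers Cyp2c11 averaged 3.61, which is 2.59 log2 units below ligated sham livers (adjusted p = 0.013), and Car3 averaged 2.86, not above background and lower than in ligated sham livers (adjusted p = 0.0019). In ligated H/R livers Car3 and Cyp2c11 averaged 7.84 and 7.76, with differences of 1.78 and 1.57 from ligated sham livers that did not pass (adjusted p = 0.22 and 0.28). Against ligated H/R livers, simvastatin H/R livers were 4.04 log2 units lower for Cyp2c11 (adjusted p = 7.1e-07), and lower for Car3 with no exact size, since its mean there was not above background (adjusted p = 3.4e-08). Control sham livers averaged 12.43 for Car3 and 12.31 for Cyp2c11.

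Nfe2, outside lipid synthesis, also rose. It encodes a transcription factor best known from megakaryocytes and red cell precursors. Its log2 signal ran from 4.27 to 5.48 with a median of 4.99 in simvastatin H/R livers, against 2.81, 2.80, 2.75, 2.65 and 2.71 in ligated sham livers, where it was not above background. It was at least 2.50-fold higher (log2 difference 2.22 ± 0.26, adjusted p = 1.1e-06). In simvastatin sham livers it averaged 5.48, and in ligated H/R livers 3.60, with 1 of 6 at 5.01. The red cell markers measured were not above background in either group.

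Heatr3, known in human cells as a carrier of a ribosomal protein, averaged 5.73 ± 0.30 in simvastatin H/R and 4.46 ± 0.28 in ligated sham livers, and rose by 1.27 (adjusted p = 1.0e-05).

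Single members of other lists also passed. A2m, an acute phase protease inhibitor in rats, ran from 10.69 to 12.74 in simvastatin H/R livers, against 10.49, 10.07, 10.87, 11.05 and 10.83 in ligated sham livers, and rose by 1.06 ± 0.26 (adjusted p = 0.029). Its difference was -0.12 for simvastatin sham and 1.23 for ligated H/R against ligated sham livers, the second just short of the threshold (adjusted p = 0.051). Simvastatin H/R livers were 1.17 above simvastatin sham livers, also short of it (adjusted p = 0.34). The joint call was lost when the fit held only these groups and without any one of 5 arrays (ligated sham replicates 1 and 2 and simvastatin H/R replicates 1, 3 and 4). Angptl4, a secreted lipoprotein lipase inhibitor, rose by 1.34 ± 0.32 (adjusted p = 0.025), and its call was lost without any one of 7 arrays (ligated sham replicates 1, 2 and 4 and simvastatin H/R replicates 1, 4, 5 and 6). Both A2m and Angptl4 also lost the call with the title ending as a fixed block (adjusted p = 0.96 and 0.92) and as a random block (adjusted p = 0.098 and 0.051).

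H/R without the drug defined the genes that could return. In ligated H/R against ligated sham livers 18 of 13437 genes (0.134%) passed, 16 higher (0.119%) and 2 lower (0.0149%), and this count ranged from 2 without ligated H/R replicate 1 to 45 without ligated sham replicate 3. Each was then placed by its value in simvastatin H/R livers. A gene stayed changed where the joint difference passed in the same direction. It was back at the sham level where the joint difference did not pass, its 95% interval lay within 1.5-fold of ligated sham, and simvastatin H/R passed against ligated H/R in the opposite direction. By this rule 3 genes stayed changed, 1 was back at the sham level, 0 passed the other way and 14 were not settled. Both comparisons use the ligated sham arrays, and the genes were chosen for a large H/R difference, which by itself favours smaller values in the second comparison.

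**Figure D4:**
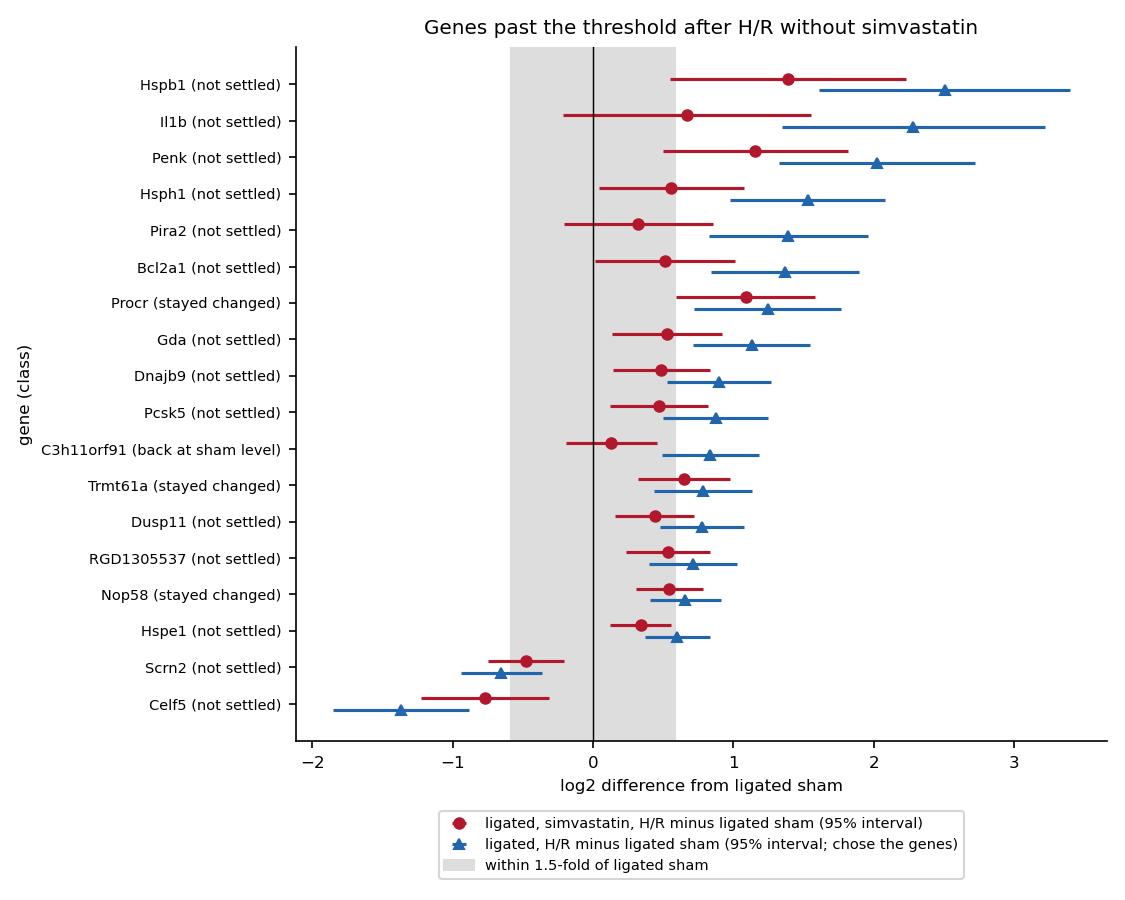
Log2 differences from ligated sham livers with 95% intervals for the 18 genes past the threshold after H/R without simvastatin, in simvastatin H/R (circles) and ligated H/R livers (triangles, the values that chose the genes), with the range within 1.5-fold shaded and the class of each gene beside its name. Of the 18 circle intervals 3 include 0 (C3h11orf91, Il1b and Pira2).

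The genes that stayed changed were Procr, Trmt61a and Nop58. Procr, the endothelial receptor for activated protein C, ran from 7.45 to 8.49 with a median of 8.19 in simvastatin H/R livers, against 7.38, 6.84, 6.14, 7.20 and 7.55 in ligated sham livers. It was 1.09 ± 0.24 higher than in ligated sham livers (2.12-fold, adjusted p = 0.013), and ligated H/R livers, at 8.26 ± 0.43 (SD, n = 6), were 1.24 higher (adjusted p = 0.030). Simvastatin H/R and ligated H/R livers differed by -0.16 (adjusted p = 0.82). Nop58, a core protein of the particles that methylate ribosomal RNA, was 0.54 higher in simvastatin H/R and 0.66 higher in ligated H/R than in ligated sham livers (adjusted p = 0.010 and 0.013). Trmt61a, a subunit of a tRNA methyltransferase, was 0.65 and 0.78 higher (adjusted p = 0.034 and 0.047). In each of the 3 genes simvastatin sham livers were also above ligated sham livers, by 0.59, 0.57 and 0.47, short of the threshold (adjusted p = 0.40, 0.16 and 0.095 for Procr, Trmt61a and Nop58). The joint calls were lost without any one of ligated sham replicates 2 and 3 for Procr, and 1 and 2 for Nop58. For Trmt61a the joint call was lost without any one of 7 arrays (ligated sham replicates 1, 2, 4 and 5 and simvastatin H/R replicates 1, 4 and 6), with only the groups compared, after quantile normalization, after median centring and with the title ending as a random block. Nop58 lost its call with the mean of all probe sets (0.28, adjusted p = 0.44). With the title ending as a fixed block 0 of the 3 passed.

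The only gene classed as back at the sham level was C3h11orf91, an uncharacterized open reading frame. Its log2 signal ran from 2.53 to 3.18 in simvastatin H/R livers, against 2.62, 3.48, 2.68, 2.80 and 2.42 in ligated sham livers. Ligated H/R livers averaged 3.63, which was 0.83 above ligated sham, and simvastatin H/R livers were 0.70 below ligated H/R livers (adjusted p = 0.010). The joint difference was 0.13 with an interval of -0.20 to 0.45. The gene's mean was not above the nonspecific probes in any of the 3 groups, which leaves its levels without a measured base.

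Heat shock and cytokine genes were among the unsettled ones. Hspb1, the small heat shock protein HSP27, ran from 7.29 to 10.03 with a median of 8.89 in simvastatin H/R livers, against 7.34, 7.47, 6.57, 7.75 and 7.68 in ligated sham livers. Only 1 of the 8 treated livers lay within the range of the sham livers. The joint difference was 1.39 ± 0.41 with a 95% interval of 0.55 to 2.23 (adjusted p = 0.095), ligated H/R livers were 2.50 above ligated sham livers (adjusted p = 0.0086), and simvastatin H/R livers were 1.12 below ligated H/R livers (adjusted p = 0.16). Neither a return nor a lasting rise passed with all arrays, and the joint difference passed without simvastatin H/R replicate 7 (1.60, adjusted p = 0.037). Hsph1, a nucleotide exchange factor for HSP70, had a joint difference of 0.56 with an interval of 0.04 to 1.08, against 1.53 after H/R without the drug, and simvastatin H/R livers were 0.97 below ligated H/R livers (adjusted p = 0.032). The interval reaches past 1.5-fold, so the gene was not settled. Hspe1, the mitochondrial cochaperonin, differed by 0.34 with an interval of 0.12 to 0.56, inside 1.5-fold, but its difference from ligated H/R livers, -0.26, did not pass (adjusted p = 0.21). Hspa1a, inducible HSP70, was 2.20 higher after H/R without the drug (adjusted p = 0.058) and had a joint difference of 1.46 (adjusted p = 0.13). In the whole list of 17 heat shock genes 0 passed in the joint comparison, 15 were above 0 and the median was 0.20, while for H/R without the drug 3 passed upward and the median was 0.45. Over all genes 6140 of 13437 were above 0 in the joint comparison, and 0.119% passed upward for H/R without the drug.

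Il1b, the cytokine interleukin 1 beta, had log2 signals of 11.14, 8.24, 8.25, 7.64, 8.99, 9.45, 8.92 and 9.74 in simvastatin H/R livers, against 6.62, 7.89, 9.04, 8.47 and 9.88 in ligated sham livers. All 6 ligated H/R livers, from 10.31 to 11.40, lay above all 5 ligated sham livers and above 7 of the 8 simvastatin H/R livers. The joint difference was 0.67 with an interval of -0.21 to 1.55 (adjusted p = 0.59), and simvastatin H/R livers were 1.61 below ligated H/R livers (adjusted p = 0.038). Il1a had differences of 0.37 in simvastatin H/R and 2.73 in ligated H/R livers from ligated sham livers, neither past the threshold, so it is not among the classed genes. Of the 10 genes of the interleukin 1 family 0 passed in the joint comparison, with a median of 0.27. For H/R without the drug the median was 0.74 and 1 passed, as did 0.134% of all genes. Penk, the enkephalin precursor, had a joint difference of 1.16 with an interval of 0.50 to 1.81 (adjusted p = 0.069) and 2.02 after H/R without the drug. The joint difference of Penk passed without ligated sham replicate 5 or without simvastatin H/R replicate 8 (adjusted p = 0.044 and 0.036). Bcl2a1, an antiapoptotic protein of leukocytes, and Gda, guanine deaminase, had joint differences of 0.51 and 0.52, against 1.36 and 1.13 after H/R without the drug.

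Pira2, a paired immunoglobulin-like receptor of myeloid cells, had an H/R effect that differed with the drug (difference of effects -2.44, adjusted p = 0.0038). It was the single gene of 13437 to pass this test (0.00744%). Differences of similar size did not pass for S100a8, S100a9 and Il1b (-2.77, -2.52 and -2.42, adjusted p = 0.61, 0.76 and 0.53). Pira2 averaged 4.50 ± 0.52 in simvastatin H/R, 5.56 ± 0.34 in simvastatin sham, 5.57 ± 0.43 in ligated H/R and 4.18 ± 0.74 in ligated sham livers. The joint difference was 0.32 with an interval of -0.21 to 0.86, and simvastatin H/R livers were 1.07 below ligated H/R livers (adjusted p = 0.020). Pira genes are near-identical copies of each other, so the probe set may read several. Of the remaining genes, Celf5, an RNA-binding protein, fell by 1.37 after H/R without the drug, with a joint difference of -0.77 (adjusted p = 0.090). Dnajb9 (an endoplasmic reticulum cochaperone), Pcsk5 (a proprotein convertase), Dusp11, RGD1305537 and Scrn2 had joint differences of 0.49, 0.47, 0.44, 0.53 and -0.48, with intervals that excluded 0 and reached past 1.5-fold. Dusp11 passed without ligated sham replicate 3 or simvastatin H/R replicate 8 (adjusted p = 0.031 and 0.034). RGD1305537 passed with only the groups compared, with array weights and among genes above the 30th percentile (adjusted p = 0.035, 0.0072 and 0.048), and Celf5 and Hspe1 passed with array weights (adjusted p = 0.036 and 0.043).

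**Figure D5:**
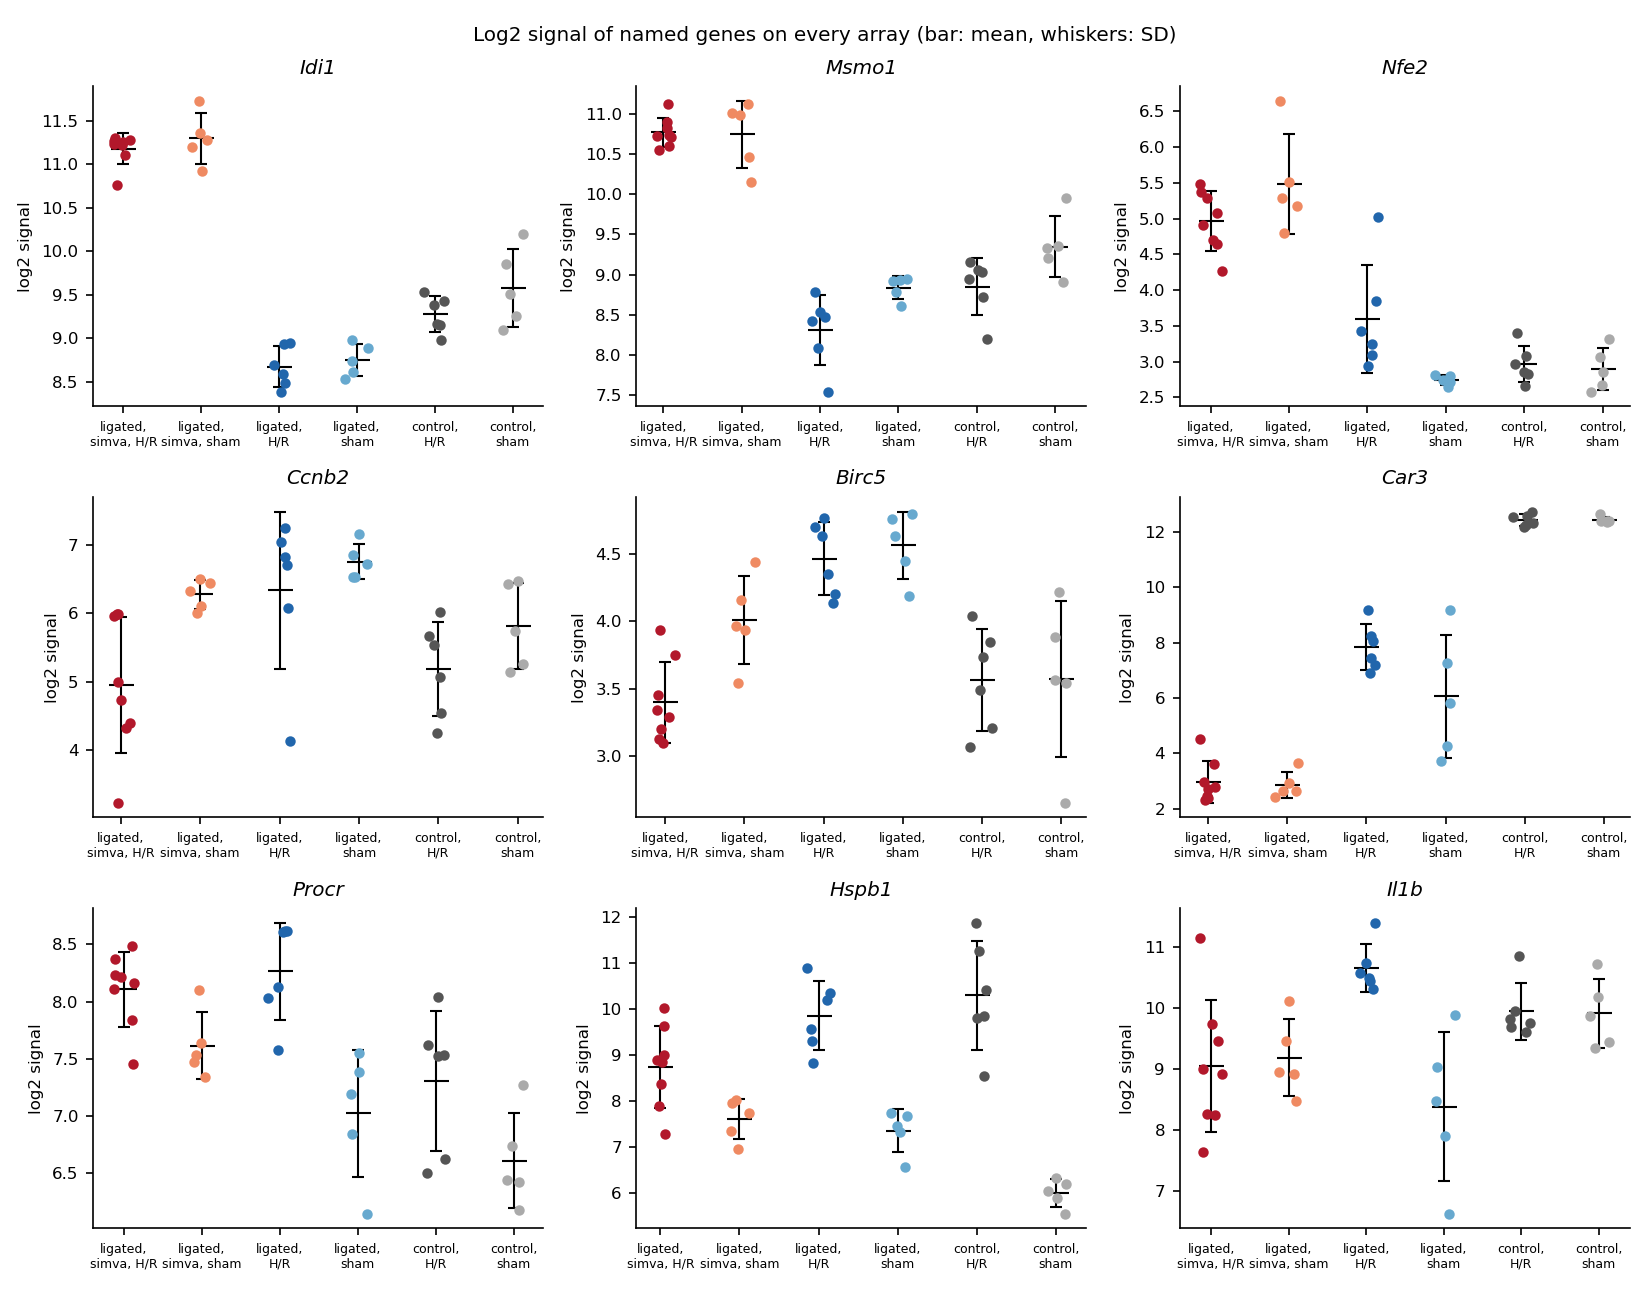
Log2 signal of 9 genes on every array, with the group mean (bar) and SD (whiskers), groups from left to right simvastatin H/R, simvastatin sham, ligated H/R, ligated sham, control H/R and control sham. Idi1, Msmo1 and Nfe2 are high in both simvastatin groups, Ccnb2 and Birc5 lowest on average among ligated livers in simvastatin H/R, Car3 low in both simvastatin groups, Procr higher in simvastatin H/R and ligated H/R than in ligated sham livers, and Hspb1 and Il1b highest among ligated livers in ligated H/R.

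Simvastatin H/R livers passed against ligated H/R livers in the direction opposite to the H/R difference in 4 of the 18 genes (C3h11orf91, Hsph1, Il1b and Pira2), in a comparison where 1.35% of all genes passed in either direction. The comparison shares the ligated H/R arrays that chose the genes. In unligated livers H/R also raised 3 of the 18, Hspb1, Hsph1 and Hspe1, by 4.30, 1.12 and 0.71, and 0.365% of all genes were called higher there. A wider set of H/R genes, taken at 1.5-fold and an unadjusted p under 0.01, held 214 genes, 154 higher and 60 lower. Of these 13 stayed changed, 7 were back at the sham level, 2 passed the other way and 192 were not settled. The 7 were Adam8 (a leukocyte metalloprotease), Emilin2 (a matrix glycoprotein), Slc7a8 (an amino acid transporter) and C3h11orf91, higher after H/R without the drug, and Id1 (an inhibitor of helix-loop-helix factors), Tmem204 (an endothelial membrane protein) and Tns1 (a focal adhesion protein), lower after it. Emilin2 averaged 3.98 in simvastatin H/R, 5.06 in ligated H/R and 3.97 in ligated sham livers, and Id1 averaged 6.98, 6.19 and 7.05 in the same groups. The 2 that passed the other way were Car3 and Cyp2c11. Among the 13 that stayed changed were Fabp4, a fatty acid carrier of endothelium and adipocytes (8.31 in simvastatin H/R, 8.48 in ligated H/R and 6.92 in ligated sham livers), Mnda, a nuclear protein of myeloid cells (7.61, 7.58 and 6.44), and Clec14a, an endothelial lectin (7.21, 6.75 and 6.16). Simvastatin sham livers, without H/R, averaged 8.25 for Fabp4, 7.85 for Mnda and 6.89 for Clec14a, which is 1.33, 1.41 and 0.73 above ligated sham livers (adjusted p = 0.086, 0.0029 and 0.056).

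Genes followed for liver injury and the vasculature did not pass in the joint comparison. S100a8 and S100a9, neutrophil alarmins, had differences of 0.41 and 0.44 (adjusted p = 0.87 and 0.85), against 1.86 and 1.77 for ligated H/R livers (adjusted p = 0.27 and 0.32). Icam1, the leukocyte adhesion molecule, differed by 0.31 (adjusted p = 0.74). Klf2, the flow-responsive endothelial transcription factor, averaged 8.38 ± 0.53 in simvastatin H/R and 7.92 ± 0.39 in ligated sham livers, a difference of 0.46 (adjusted p = 0.47). Nos3, endothelial nitric oxide synthase, was not above background in either group. Of the 32 lists 25 had 0 members past the threshold in the joint comparison, among them 19 hypoxia genes, of which 18 were above 0, 19 cytokine and chemokine genes, 29 matrix genes and 24 bile acid genes. Over all genes 6140 of 13437 were above 0. A p that misses the threshold does not show that these levels are equal.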

How the data were processed

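Liver RNA of 35 rats was measured on Affymetrix arrays, with biotin labelling per the labels' protocols. The authors deposited log2 signal values per probe set (31139 probe sets, from 1.51 to 13.8); how they were normalized is not stated in the labels or headers. Array medians lay between 3.97 and 4.29, and 0 pairs of arrays were identical. The platform annotation gave 1 gene symbol for 19062 probe sets, several for 573 and none for 11504, and a gene took its brightest probe set, which gave 13437 genes without a filter on dim genes. Groups were taken from the labels.

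A linear model with a mean per group was fitted to all arrays with limma 3.58.1 in R 4.3.3 (eBayes, Benjamini-Hochberg over all genes, adjusted p under 0.05), after a test on simulated data. A group not above its brightest nonspecific control probe set has only a bound, so a fold change there is written "at least". Quality measures were compared by two-sided exact permutation over 1287 arrangements. Figures were drawn with matplotlib 3.10.9. Nothing in the labels says that replicates came from separate procedures or days beyond being separate samples, and their number limits the precision. Members and lists were chosen with earlier results of these data known. Genes named are the 12 largest rises and 12 largest falls, up to 4 called members of each list, up to 10 genes of each return class, and a fixed set, some of which is not reported here; others are named as members of a group or list described. Alternatives were the arrays in the fit, moderation, array weights, a filter on dim genes, renormalization, centring, the probe set rule, title endings as a block, thresholds and each array left out.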

Additional observations from a re-analysis of the deposited data

Results flagged for a closer look

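In 108 groups of 4 to 10 arrays examined for a sample far from the others, 6 held one, and chance flags about 1 in 20 groups. Idi1 was 10.765 in simvastatin H/R replicate 2, against 11.11 to 11.31 in the other 7 livers. Cyp2c11 was 5.1154 in simvastatin H/R replicate 7, against 2.98 to 3.97 in the others. Icam1 was 9.2356 in simvastatin H/R replicate 1, against 7.80 to 8.35. Scrn2 was 4.0398 in simvastatin H/R replicate 3, against 4.59 to 5.01. Trmt61a was 5.922 in ligated sham replicate 3, against 4.81 to 5.08 in the other 4 livers. S100a9 was 8.6076 in the same ligated sham liver, against 7.92 to 8.09.

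The H/R effect on Pira2 differed with the drug: it was -1.06 between simvastatin H/R and simvastatin sham livers and 1.39 between ligated H/R and ligated sham livers, a difference of -2.4443 (limma, adjusted p = 0.0038).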

How the results depend on the processing

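Of 1507 values of named genes under the alternatives, 1432 kept their direction and side of the threshold, 65 lost the call, 10 gained one and 0 reversed; of 33 named genes that passed, 7 passed under each alternative (Idi1, Acat2, Mvd, Nfe2, Msmo1, Aacs and Cyp51). The cause was not tested for the following changes unless the alternative itself removes arrays or genes. With the title ending as a fixed replicate block the joint comparison gave 11 genes (8 higher, 3 lower), with 6 sterol synthesis genes, 0 cell cycle genes, 4 H/R genes, and classes of 0 stayed changed, 0 back at sham and 4 not settled. As a random replicate block (correlation 0.079) it gave 87 (65 higher, 22 lower). Array weights gave 477 (286 higher, 191 lower), 43 H/R genes, 19 stayed changed and 4 back at sham. With only the groups compared, 10 cell cycle genes, 3 H/R genes and 0 back at sham were found. With genes above the 30th percentile, 7 stayed changed and 0 were back at sham. An adjusted p under 0.01 gave 70 genes, and a fold of at least 2 as well gave 51. A 2-fold interval gave 2 back at sham, and the wider H/R set gave 13 stayed changed, 7 back at sham, 192 not settled and 2 opposite. Without the simvastatin H/R arrays ending in 12, an alternative chosen after seeing the data, 101 genes passed (74 higher, 27 lower), 3 of them cell cycle genes. Median centring of the arrays gave 117 higher and 42 lower genes, against 114 and 56. Leaving out each array in turn, the joint count ranged from 88 to 192, with 61 to 117 higher and 27 to 75 lower, sterol synthesis genes from 16 to 17, cell cycle genes from 4 to 10, H/R genes from 2 to 45, stayed changed from 0 to 10, back at sham from 0 to 3, not settled from 2 to 32 and opposite from 0 to 2. Genes near the nonspecific probes have only bounds.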

Other observations

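The following genes were chosen after their values were seen. Several factors of ribosome assembly passed upward, and how many such genes were measured or did not pass was not counted. Ddx21, a nucleolar helicase, averaged 0.71 higher in simvastatin H/R than in ligated sham livers on the log2 scale (adjusted p = 0.012). Dnttip2 and Wdr43, nucleolar proteins of the small subunit pathway, were each 0.68 higher, and Rpf2 and Brix1, of the large subunit pathway, were 0.55 and 0.44 higher. No list of such genes was tested, and the parts of drug and H/R in these differences were not separated.

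Genes that H/R changed in unligated livers were followed into the joint comparison, which shares no arrays with them. Of 49 genes higher in control H/R than in control sham livers, 1 passed upward in the joint comparison and 36 were above 0, with a median of 0.12. The 1 was Fabp4 (1.39, adjusted p = 0.022). Of 66 lower genes, 1 passed downward (Sbk1, -0.80) and 50 were below 0, with a median of -0.16. Over all genes 0.848% passed upward, 0.417% passed downward and the median was -0.02.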
